A study of Homo sapiens with 9 samples.

Results

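Trimethylation of lysine 27 of histone H3 is a repressive mark, written by 1 enzyme complex and removed mainly by 1 small enzyme family. Transcripts from both sides of that balance are described here in lymphoma cells exposed to JIB-04. The 10 genes were taken by name from the deposited table of 25370 gene symbols. They are the demethylases KDM6A and KDM6B, the alternative catalytic subunits EZH2 and EZH1 of Polycomb repressive complex 2 (PRC2), the core subunits EED, SUZ12 and RBBP7, and the accessory subunits JARID2, PHF19 and MTF2. All 10 passed the filter on low counts, as did 15089 symbols in the whole table.

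RNA sequencing after ribosomal RNA depletion was carried out on OCI-Ly1, an established line from a diffuse large B-cell lymphoma. The cells had received DMSO, the vehicle, or JIB-04 at 150 nM or at 500 nM for 48 h, and each of the 3 groups holds 3 libraries. The compound JIB-04 inhibits histone demethylases with a Jumonji domain, among which are KDM6A and KDM6B. Nothing in the labels tells whether replicate libraries stem from different cultures, and a p-value therefore refers to the spread among libraries, part of which may be technical.

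PRC2 places methyl groups on H3 lysine 27 through the SET domain of EZH2 or of EZH1, which take the same place in the complex. EED binds the methylated product and stimulates the enzyme, SUZ12 holds the complex together, and RBBP7 or its close relative RBBP4 binds histones. KDM6A, also called UTX, and KDM6B, also called JMJD3, remove the mark through their Jumonji domains. In germinal-centre B cells, from which this lymphoma derives, EZH2 is abundant and holds cell-cycle inhibitors and plasma-cell genes silent. OCI-Ly1 is known to carry an activating substitution in the SET domain of 1 EZH2 allele. The counts do not separate alleles, so that nothing here refers to one or the other.

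Libraries held 28476845 to 57198613 counts, and the members held from 235 counts (KDM6B, in 1 library) to 16988 counts (RBBP7, in 1 library). All 6 B-cell markers examined (CD79A, CD79B, MS4A1, PAX5, BCL6 and CD22) stood above 1 CPM in every group. Their summed level was 1642 to 1695 CPM in DMSO libraries, 1653 to 1716 CPM at 150 nM and 1417 to 1467 CPM at 500 nM. The 5 T-cell markers summed to 18.7 to 21.4, 14.2 to 16.9 and 7.8 to 8.44 CPM in the same order, with CD3D and CD3G above 1 CPM, and the 5 myeloid markers summed to at most 2.86 CPM, with MPO at 0. The 4 fibroblast markers summed to at most 1.59 CPM and the 3 endothelial markers to at most 3.94 CPM. The B-cell and T-cell sums were lowest at 500 nM, and their part in the results below was not tested. In such bulk samples, fewer cells that express a gene and less of its RNA per cell cannot be told apart.

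Promoter windows of 6 of the genes are shown first. They are 4 of the 5 that fell (EZH2, SUZ12, MTF2 and EED) and 2 of the 3 that rose (EZH1 and KDM6B) at 500 nM. The windows run from 250 bases before to 50 bases after the transcription start and come from RefSeq (assembly GRCh38.p14). All 10 genes matched, with 15 windows in all, and 5 genes have 2. Capitals mark the letters of an E2F site (TTTCCCGC, TTTGGCGC, TTTCGCGC or TTTGCCGC on either strand). Where a gene has 2 windows, the first in the table is printed.
EZH2, chr7:148884242-148884541, minus strand: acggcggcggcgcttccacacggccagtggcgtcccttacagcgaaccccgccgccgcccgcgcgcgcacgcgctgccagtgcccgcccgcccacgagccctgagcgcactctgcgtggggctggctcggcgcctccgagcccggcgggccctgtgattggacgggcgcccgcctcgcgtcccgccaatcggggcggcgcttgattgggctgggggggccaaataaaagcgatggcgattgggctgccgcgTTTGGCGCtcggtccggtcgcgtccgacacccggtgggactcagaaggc
SUZ12, chr17:31936757-31937056, plus strand: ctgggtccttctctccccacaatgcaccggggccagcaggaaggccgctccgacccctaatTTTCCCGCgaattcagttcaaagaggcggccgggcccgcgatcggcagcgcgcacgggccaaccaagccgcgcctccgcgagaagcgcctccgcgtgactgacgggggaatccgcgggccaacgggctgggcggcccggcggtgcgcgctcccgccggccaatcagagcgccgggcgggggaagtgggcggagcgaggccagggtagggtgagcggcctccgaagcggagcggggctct
MTF2, chr1:93079033-93079332, plus strand: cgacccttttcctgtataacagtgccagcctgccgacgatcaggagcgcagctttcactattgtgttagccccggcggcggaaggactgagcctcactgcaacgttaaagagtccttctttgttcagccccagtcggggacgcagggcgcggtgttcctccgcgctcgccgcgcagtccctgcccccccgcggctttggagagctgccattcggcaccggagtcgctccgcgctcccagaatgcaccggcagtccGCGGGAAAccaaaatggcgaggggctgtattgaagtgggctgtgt
EZH1, chr17:42744991-42745290, minus strand: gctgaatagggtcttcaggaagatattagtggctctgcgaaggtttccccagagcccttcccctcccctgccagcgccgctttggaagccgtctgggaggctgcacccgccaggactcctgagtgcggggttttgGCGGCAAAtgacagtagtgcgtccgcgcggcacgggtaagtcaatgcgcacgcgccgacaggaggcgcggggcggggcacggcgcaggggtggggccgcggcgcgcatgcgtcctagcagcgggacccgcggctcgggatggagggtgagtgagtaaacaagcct
EED, chr11:86244503-86244802, plus strand: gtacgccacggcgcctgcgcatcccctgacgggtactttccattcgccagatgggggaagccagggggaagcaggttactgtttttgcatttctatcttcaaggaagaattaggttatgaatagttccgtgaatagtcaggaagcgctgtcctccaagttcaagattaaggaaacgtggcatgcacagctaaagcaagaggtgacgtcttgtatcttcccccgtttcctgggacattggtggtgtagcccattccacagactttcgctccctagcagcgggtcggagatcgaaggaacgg
KDM6B, chr17:7833967-7834266, plus strand: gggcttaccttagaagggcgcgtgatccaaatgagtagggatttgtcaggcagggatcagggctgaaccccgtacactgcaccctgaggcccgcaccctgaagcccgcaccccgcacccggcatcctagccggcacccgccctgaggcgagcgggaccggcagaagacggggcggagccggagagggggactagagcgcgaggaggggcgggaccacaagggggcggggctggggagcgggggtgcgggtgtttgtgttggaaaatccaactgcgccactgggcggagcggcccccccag

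EZH2 has such letters at +2, SUZ12 at -189, MTF2 at +6 and EZH1 at -115, counting from the start, those of MTF2 and EZH1 on the opposite strand. EED and KDM6B have none in these windows, and PHF19, whose windows are not printed, has them at -152 on the opposite strand. RBBP7, which fell, JARID2, which rose, and KDM6A are not printed either and have none in any window. Thus 5 of the 10 genes hold the letters in some window, against 6.29% of 10465 tested genes with a window in the table and 3.31% of all 35116 windows. Genes and motifs were chosen with earlier results of these data known, so the comparison is not independent. EZH2, SUZ12 and MTF2 were lower at 500 nM and EZH1 was higher, so the letters are found in members of both directions. The letters TGATGNAA, bound by ATF4 with C/EBP proteins, were found in 0 of the 10 genes, against 2.9% of tested genes. The AP-1 letters TGANTCA were found only in KDM6A (at -110), against 7.28% of tested genes. A match describes letters, not binding.

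After 48 h with 500 nM JIB-04, KDM6B had 3.37 times its DMSO level, the largest change among the 10 genes, while EED, RBBP7, MTF2, EZH2 and SUZ12 fell and EZH1 and JARID2 rose. Hence 8 of the 10 members were called at an adjusted p under 0.05, 3 of them higher and 5 lower. Among all 15089 genes tested in this comparison, 52% were called, 26.3% higher and 25.6% lower, so being called was common and the members' count is to be read against that share. Only 12910 of the tested genes reached 1 CPM in at least 3 libraries, while every member averaged at least 8.45 CPM in each group. The share called among genes of like level was not computed, for this or the other comparisons. For 8 of the 10 the 500 nM and DMSO libraries had no overlap, as for 59.2% of all tested genes. The median log2 fold change of the members was -0.07, against 0.01 over all tested genes. Levels are in CPM, that is counts relative to the TMM-scaled library size, changes are log2 fold changes ± SE from edgeR, and adjusted p-values come from edgeR's quasi-likelihood test with Benjamini-Hochberg adjustment over all tested genes.

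**Figure D1:**
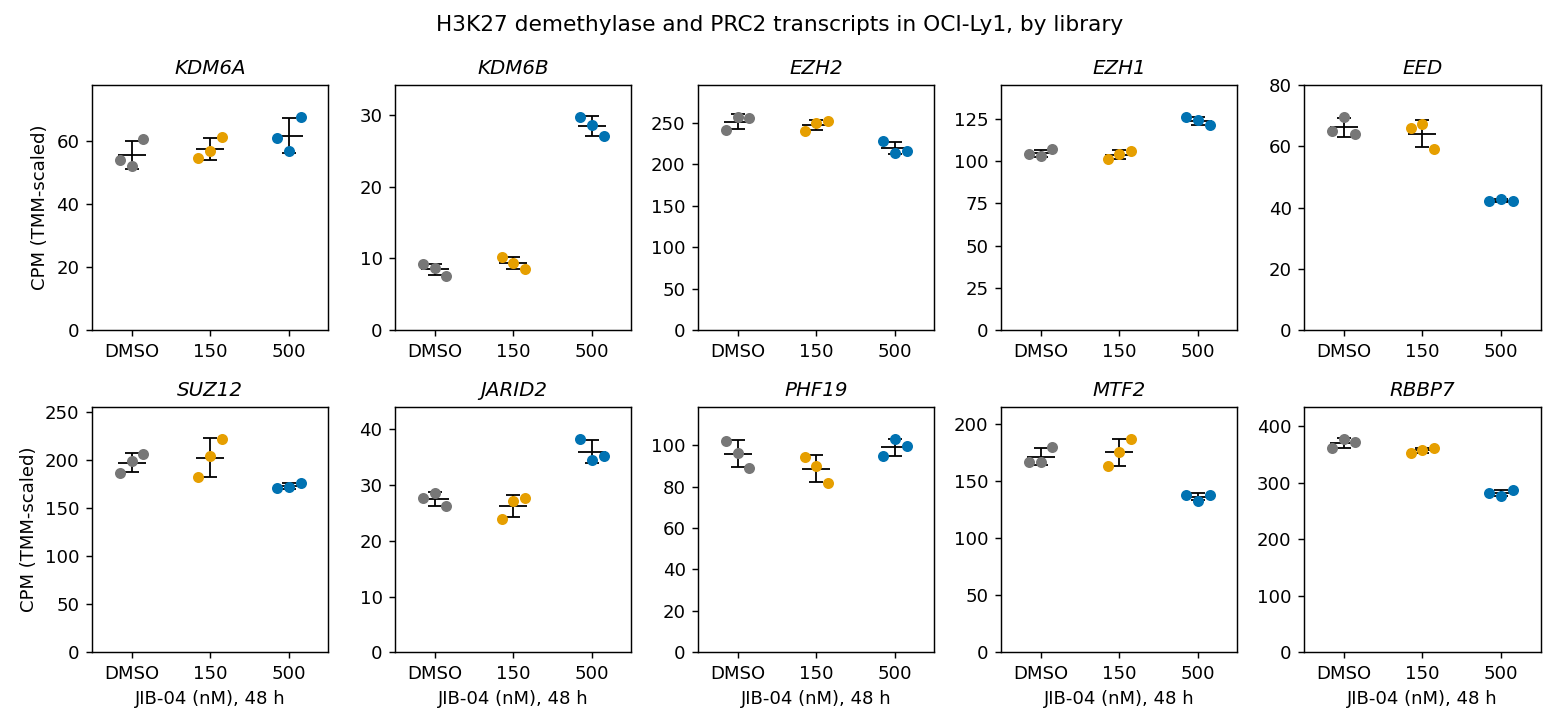
Level of each of the 10 genes (y axis, CPM after TMM scaling, from 0) in the 3 libraries of each group (x axis), with mean and SD as bars. KDM6B sits at 27 to 29.7 CPM at 500 nM, above every 150 nM and DMSO library, and EED at 42 to 42.8 CPM, below all of them.

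Of the demethylases, KDM6B changed and KDM6A did not pass the test. KDM6B is the member of the pair that is known to be induced by stress and inflammatory signals. It stood at 9.16, 8.61 and 7.59 CPM in the DMSO libraries, at 10.2, 9.39 and 8.57 CPM at 150 nM, and at 29.7, 28.6 and 27 CPM at 500 nM. Every 500 nM library was thus far above every other library, and the 150 nM and DMSO libraries overlapped. In each group the level fell from replicate 1 to 3, and each 150 nM library was above the DMSO library of its number. The labels do not tell whether the numbers mark pairs, and with the replicate number as a block the 150 nM change was not called (0.16, edgeR adjusted p = 0.6). Its mean was 28.4 ± 1.34 CPM at 500 nM and 8.45 ± 0.798 CPM in DMSO (SD, n = 3 each), a change of 1.75 ± 0.10 with adjusted p = 4.93e-14. Only 4.31% of tested genes had a larger change in either direction.

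KDM6A, the demethylase that also belongs to the KMT2C and KMT2D methyltransferase complexes, varied little. It had 53.8, 51.9 and 60.4 CPM in DMSO, 54.4, 56.6 and 61.2 CPM at 150 nM, and 60.7, 56.6 and 67.5 CPM at 500 nM. The groups overlap, since the DMSO library at 60.4 CPM lies above the 500 nM library at 56.6 CPM. The change at 500 nM against DMSO was 0.15 ± 0.08 (95% interval -0.0010 to 0.31, adjusted p = 0.0895). It passed the threshold in 5 of 20 alternative analyses. The lowest adjusted p-values came with scaling by total counts (0.29, adjusted p = 0.00174) and with GC trends removed (0.19, adjusted p = 0.00695). Others were the fits without DMSO replicate 3 (0.22, adjusted p = 0.0246) and without 500 nM replicate 2 (0.21, adjusted p = 0.0389). The fit with the replicate number as a block did so too (0.15, adjusted p = 0.0382).

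Within each library the ratio of KDM6B to KDM6A counts, which does not depend on how libraries are scaled, was 0.489, 0.504 and 0.4 at 500 nM, against 0.17, 0.166 and 0.126 in DMSO. All the 500 nM ratios were higher. The mean log2 ratio differed by 1.60 (3.03-fold), with p = 0.1 in an exact two-sided permutation test, the smallest p that 3 libraries against 3 can give. At 150 nM the ratios were 0.188, 0.166 and 0.14, and the difference from DMSO was 0.10 (exact permutation p = 0.6).

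The alternative catalytic subunits moved in opposite directions at 500 nM. EZH2, the form that dominates in dividing cells, had 241, 257 and 256 CPM in DMSO, 240, 250 and 252 CPM at 150 nM, and 228, 214 and 216 CPM at 500 nM. All 500 nM libraries were below all others, but the step was small. The mean was 219 ± 7.18 CPM at 500 nM and 251 ± 9.1 CPM in DMSO (SD, n = 3 each), and EZH2 fell by 12.6% (log2 change -0.19 ± 0.05, adjusted p = 0.00185). Scaling by total counts ended this call, as described further on.

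EZH1, the form that is known to be kept in resting cells, had 104, 103 and 107 CPM in DMSO, 101, 104 and 106 CPM at 150 nM, and 126, 124 and 121 CPM at 500 nM. Its 3 libraries at 500 nM again lay apart from the rest, here above them. The mean was 124 ± 2.61 CPM at 500 nM and 105 ± 1.77 CPM in DMSO (SD, n = 3 each), a change of 0.24 ± 0.05 with adjusted p = 0.000494.

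The ratio of EZH1 to EZH2 counts was therefore 0.554, 0.577 and 0.56 at 500 nM, against 0.431, 0.403 and 0.416 in DMSO. These groups did not overlap, and the mean log2 ratio was 0.44 higher (1.35-fold; exact two-sided permutation p = 0.1, the smallest possible). At 150 nM the ratios were 0.42, 0.417 and 0.422, a difference of 0.01 from DMSO (exact permutation p = 0.7). As neither gene is divided by its length here, the ratio shows a shift between groups and not which transcript is more abundant.

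**Figure D2:**
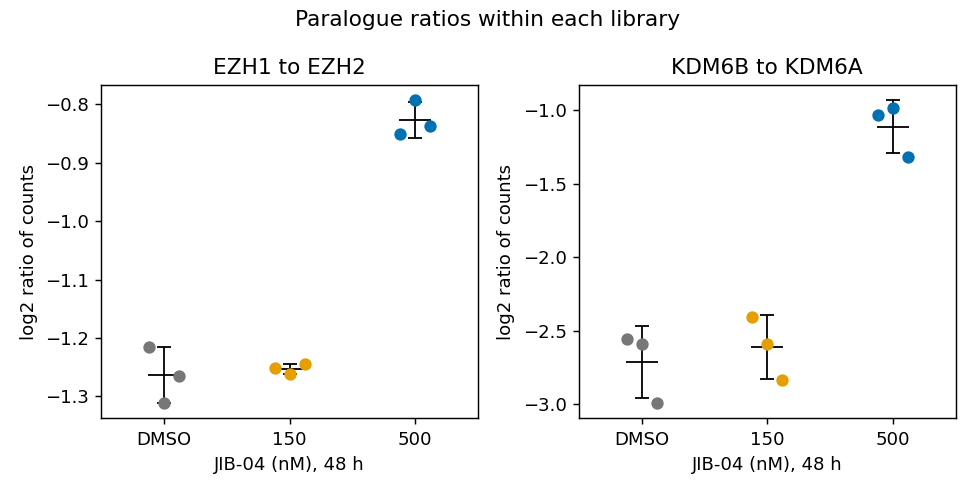
Log2 ratio of counts within each library (y axis) of EZH1 to EZH2 (left) and of KDM6B to KDM6A (right) by group (x axis), with mean and SD as bars over 3 libraries. Both ratios are higher in all 500 nM libraries than in any other, by 0.44 and 1.60 against DMSO, and the 150 nM libraries overlap those of DMSO.

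Among the core partners, all 3 were lower at 500 nM, with EED changing most. EED had 65, 69.6 and 63.9 CPM in DMSO, 65.9, 67.4 and 59.2 CPM at 150 nM, and 42, 42.8 and 42.1 CPM at 500 nM. The 500 nM libraries lay close together and well below the lowest of the others. The mean was 42.3 ± 0.411 CPM at 500 nM and 66.2 ± 3 CPM in DMSO (SD, n = 3 each), so that EED fell by 36% (log2 change -0.64 ± 0.07, adjusted p = 6.35e-09). This was the largest decrease of the 10 genes.

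RBBP7, the histone-binding subunit that PRC2 shares with other chromatin complexes, had 361, 377 and 372 CPM in DMSO, 353, 357 and 361 CPM at 150 nM, and 282, 277 and 287 CPM at 500 nM. Its 500 nM libraries were below the rest. The mean was 282 ± 5.09 CPM at 500 nM and 370 ± 8.05 CPM in DMSO (SD, n = 3 each), and RBBP7 fell by 23.7% (log2 change -0.39 ± 0.05, adjusted p = 5.25e-08). In GENCODE 29 the exons of RBBP7 overlap those of TXLNG on the opposite strand by 179 bases, and whether counting used strand is not stated in the labels. TXLNG moved the other way, by 0.29 ± 0.07 (adjusted p = 0.000536), so reads shared between them cannot be assigned.

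SUZ12, the scaffold of the complex, had 187, 199 and 206 CPM in DMSO, 182, 204 and 222 CPM at 150 nM, and 171, 172 and 176 CPM at 500 nM. Again no 500 nM library reached the others, although the 150 nM libraries were spread widely. The mean was 173 ± 2.62 CPM at 500 nM and 197 ± 9.86 CPM in DMSO (SD, n = 3 each), and SUZ12 fell by 12.3% (log2 change -0.19 ± 0.06, adjusted p = 0.00927). The near-identical pseudogene SUZ12P1 held counts equal to 5.47% to 7.43% of those of SUZ12 and fell too (-0.39 ± 0.11, adjusted p = 0.00268), so how reads were split between the copies is uncertain.

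The accessory subunits, which help to bring PRC2 to its sites, did not move together. JARID2, which has a Jumonji domain without demethylase activity, had 27.7, 28.6 and 26.2 CPM in DMSO, 24, 27.1 and 27.7 CPM at 150 nM, and 38.3, 34.5 and 35.3 CPM at 500 nM. The 500 nM libraries were the 3 highest. The mean was 36.1 ± 1.99 CPM at 500 nM and 27.5 ± 1.24 CPM in DMSO (SD, n = 3 each), a change of 0.39 ± 0.08 with adjusted p = 0.000187.

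MTF2, a Polycomb-like protein that binds DNA near unmethylated CpG sites, went the other way. It had 167, 167 and 180 CPM in DMSO, 163, 176 and 187 CPM at 150 nM, and 138, 133 and 138 CPM at 500 nM, which places the 500 nM libraries below all others. The mean was 136 ± 2.75 CPM at 500 nM and 172 ± 7.47 CPM in DMSO (SD, n = 3 each), and MTF2 fell by 20.6% (log2 change -0.33 ± 0.06, adjusted p = 1.42e-05).

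PHF19, another Polycomb-like protein, had 102, 96.3 and 89.1 CPM in DMSO, 94.3, 89.9 and 81.7 CPM at 150 nM, and 94.8, 103 and 99.4 CPM at 500 nM. The 500 nM and DMSO libraries overlap. The change of 0.05 ± 0.06 (95% interval -0.08 to 0.18, adjusted p = 0.536) was not called.

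**Figure D3:**
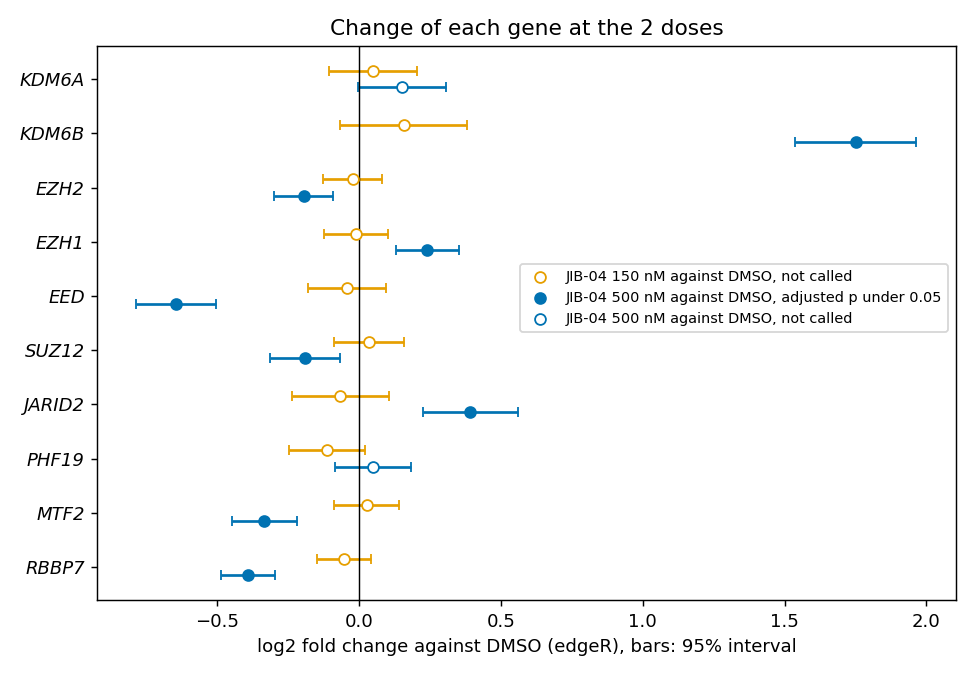
Log2 fold change against DMSO (x axis) of each of the 10 genes (y axis) at 150 nM and at 500 nM, with 95% intervals from edgeR as bars and filled circles for genes called at an adjusted p under 0.05. KDM6B (1.75) and EED (-0.64) are the extremes at 500 nM, and every 150 nM interval spans 0.

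The calls of EZH2 and SUZ12 rest on a scaling choice. TMM scaling leaves the median log2 change of all tested genes near 0, whereas scaling by total counts moves it by 0.14 for 500 nM against DMSO. On that scale EZH2 stood at -0.05 (adjusted p = 0.341) and SUZ12 at -0.05 (adjusted p = 0.486), so neither was called. Taking the shift off again only returns the TMM value of -0.19 for both, which is no separate result. PHF19 (0.19, adjusted p = 0.0173) and KDM6A (0.29, adjusted p = 0.00174) were called higher instead. The count then became 5 members higher and 3 lower, in place of 3 and 5, and of all called genes 69.5% were higher, in place of 50.7%. The calls of KDM6B, EZH1, JARID2, EED, MTF2 and RBBP7 kept their direction under both scalings, and the ratios above are not touched by the choice.

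At 150 nM none of the 10 genes was called against DMSO. By edgeR 0 of 10 passed the adjusted threshold and 0 of 10 had an unadjusted p under 0.05, while 1.27% of all tested genes were called and 10.4% had an unadjusted p under 0.05. DESeq2 and limma-voom likewise called 0 of the 10. Adjusted p-values ran between 0.605 for PHF19 and 0.97 for EZH1, and for every one of the 10 the 150 nM and DMSO libraries overlapped, whereas 13.7% of all tested genes had no overlap. The KDM6B change was 0.16 ± 0.11 (95% interval -0.07 to 0.38), an interval that leaves room for a modest rise. That of EZH2 was -0.02 ± 0.05 (95% interval -0.12 to 0.08) and that of EED -0.04 ± 0.07 (95% interval -0.18 to 0.10).

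The direct comparison of the doses, 500 nM against 150 nM, called 9 of the 10 genes, 4 higher and 5 lower, where 46.5% of all tested genes were called, 23.7% higher and 22.8% lower. Libraries did not overlap for 9 of the 10 genes and for 55% of all tested genes. It shares its 500 nM libraries with the comparison against DMSO and so is no separate evidence of that change. KDM6B was 1.59 ± 0.10 higher (adjusted p = 4.66e-13), JARID2 0.46 ± 0.08 higher (adjusted p = 3.61e-05) and EZH1 0.25 ± 0.05 higher (adjusted p = 0.000375). EED was lower, at -0.60 ± 0.07 (adjusted p = 3.03e-08), as was SUZ12, at -0.23 ± 0.06 (adjusted p = 0.00275). Values for MTF2, RBBP7 and EZH2 were -0.36, -0.34 and -0.17 (highest adjusted p = 0.00571, for EZH2). Here PHF19 was also called (0.16 ± 0.06, adjusted p = 0.043), but its call was lost in 10 of 20 alternative analyses. Among those, the adjusted p was 0.281 with GC trends removed, 0.238 without 150 nM replicate 3 and 0.17 without 500 nM replicate 2. On total counts EZH2 (-0.05, adjusted p = 0.402) and SUZ12 (-0.10, adjusted p = 0.143) were not called and KDM6A was (0.23, adjusted p = 0.0135), which made the split 5 higher and 3 lower. KDM6A was also called with GC trends removed (0.15, adjusted p = 0.0326).

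Levels of different genes can be compared only per length of transcript, and the length chosen matters. Per kilobase of the longest transcript with a RefSeq match, RBBP7 had the highest level at 500 nM, 121 ± 2.18 CPM per kilobase, against 159 ± 3.45 in DMSO (SD, n = 3 each). EZH2 had 83.1 ± 2.72 at 500 nM, against 95.1 ± 3.45 in DMSO. SUZ12 had 38.5 ± 0.582 at 500 nM, against 43.9 ± 2.19 in DMSO. EED had 19 ± 0.185 at 500 nM, against 29.8 ± 1.35 in DMSO. Hence EED was the lowest of EZH2, SUZ12 and EED in each group.

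On the same scale MTF2 followed SUZ12 in each group, with overlapping libraries in the 150 nM and DMSO groups, and EZH1 and PHF19 also overlapped in both. In the 500 nM group no neighbours in the order overlapped, and EED came after EZH1 and PHF19, whereas in DMSO it came before them, a difference that holds for this length alone. KDM6A, JARID2 and KDM6B were the 3 lowest, in that order, in every group, at 10.4, 6.27 and 4.23 CPM per kilobase at 500 nM and at 9.35, 4.78 and 1.26 in DMSO. With the median protein-coding transcript as the length, RBBP7 stayed first and these 3 stayed last. PHF19 moved to second place, because its length was 862 bases in place of 4241, though its libraries overlapped those of EZH2 at 150 nM. EZH1, with 2392 bases in place of 4623, came before SUZ12 at 500 nM, and EED came after EZH1 and PHF19 in every group.

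Of the other genes of PRC2, 2 of 6 tested rose at 500 nM against DMSO and none fell, with a median log2 change of -0.02. Over all tested genes of this comparison 26.3% were called higher and 25.6% lower, with a median of 0.01. EZHIP was not among the symbols matched. PHF1, the third Polycomb-like protein, had 23.2, 23.3 and 21.9 CPM at 500 nM, against 17.5, 17.7 and 15.7 CPM in DMSO (0.42 ± 0.09, adjusted p = 0.000223). EPOP, listed as C17orf96, had 16.2, 19.4 and 16.3 CPM at 500 nM, against 12.7, 12.6 and 11.5 CPM in DMSO (0.49 ± 0.10, adjusted p = 0.000261). In both genes the 500 nM libraries lay above all DMSO libraries. RBBP4, the relative of RBBP7, was not called (-0.08 ± 0.05, adjusted p = 0.135), nor was AEBP2, a partner of JARID2 in one form of the complex (-0.03 ± 0.09, adjusted p = 0.813).

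Polycomb repressive complex 1 (PRC1) ubiquitylates histone H2A, and those of its forms that hold a CBX subunit bind the mark that PRC2 writes. Of 25 of its genes, 8 rose and 3 fell (median log2 change 0.07), where 52% of all tested genes were called and their median was 0.01. PHC1, a polyhomeotic subunit, had 56.3, 68.2 and 61.9 CPM at 500 nM, against 44.7, 41.6 and 37.5 CPM in DMSO (0.59 ± 0.08, adjusted p = 5.89e-07), so that the groups did not overlap. PCGF5 (0.42) and a further polyhomeotic gene, PHC3, (0.39) rose as well. CBX6, a chromodomain reader of the mark, fell by 0.78 on the log2 scale, and USP7 fell by 0.49 and PCGF3 by 0.42.

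The PR-DUB complex removes the H2A ubiquitin that PRC1 places. In its list of 10 genes 2 rose and 4 fell (median -0.05, against 0.01 over all tested genes), a share near the 52% called overall. OGT, an enzyme that adds sugar to proteins, had 446, 431 and 448 CPM at 500 nM, against 306, 274 and 324 CPM in DMSO (0.55 ± 0.05, adjusted p = 1.07e-09), and MBD6 rose by 0.97. ASXL1, the partner of the deubiquitinase BAP1, fell by 0.34 and FOXK1 by 0.42. BAP1 (-0.28, adjusted p = 0.0016) and FOXK2 (-0.14, adjusted p = 0.0369) fell too, but on total counts neither was called (-0.14, adjusted p = 0.112 for BAP1; -0.0036, adjusted p = 0.963 for FOXK2), leaving 2 higher and 2 lower. The FOXK2 call was also lost without DMSO replicate 1 (adjusted p = 0.103) or 3 (adjusted p = 0.0566) and without 500 nM replicate 1 (adjusted p = 0.104) or 3 (adjusted p = 0.151).

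KDM6A works inside the KMT2C and KMT2D complexes, which methylate H3 lysine 4 at enhancers. Of 9 partner genes, 1 rose and 3 fell (median -0.12, against 0.01 over all tested genes), a share near the 52% called overall. With length trends removed, 7 of the 9 were called, 2 higher and 5 lower. The 52% belongs to the main fit, and the share of all genes called with length trends removed is not given here. Of the genes called in that fit 49.6% were higher. KMT2D had 62.9, 66.9 and 67.7 CPM at 500 nM, against 43.2, 39.7 and 35.9 CPM in DMSO (0.73 ± 0.08, adjusted p = 5.29e-09). PAXIP1 had 72.7, 75.5 and 73.8 CPM at 500 nM, against 115, 120 and 117 CPM in DMSO (-0.67 ± 0.06, adjusted p = 8.63e-11). PAGR1, which binds PAXIP1, fell by 0.45, and WDR5 by 0.24. On total counts WDR5 was no longer called (-0.10, adjusted p = 0.126) and the split became 2 higher and 2 lower. Of the acetyltransferases that place acetyl groups on the same lysine 27, CREBBP rose to 55.2, 63.3 and 61.3 CPM at 500 nM, against 41.1, 40.1 and 41.6 CPM in DMSO (0.55 ± 0.07, adjusted p = 5.21e-07), and EP300 was not called (0.10 ± 0.07, adjusted p = 0.24), although on total counts both were called higher.

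Among 8 genes described as PRC2 targets in germinal-centre B cells and lymphoma, 6 rose and none fell at 500 nM, with a median of 0.52. Among all tested genes 26.3% were called higher and 52% in either direction, and the median was 0.01. Like the other lists, this one was chosen with earlier results of these data known, so the comparison with all genes is not independent. CDKN1A, which encodes the cell-cycle inhibitor p21, had 146, 142 and 142 CPM at 500 nM, against 19.2, 17.6 and 18.8 CPM in DMSO (2.95 ± 0.07, adjusted p = 1.16e-22). It had 43.1, 41.6 and 38 CPM at 150 nM (1.14 ± 0.07 against DMSO, adjusted p = 1.13e-11), and was the only gene of the 8 lists called at that dose. CDKN2B (1.23), the plasma-cell factor IRF4 (0.88) and TXNIP (0.78) rose as well. PRDM1, which encodes the plasma-cell factor BLIMP1, was not called (-0.45 ± 0.26, adjusted p = 0.146), nor was TNFRSF21 (0.25 ± 0.28, adjusted p = 0.467). H3K27 methylation was not measured, so these values say nothing of the mark at these genes.

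HOX genes are targets of PRC2 in many tissues, and only 8 of 39 passed the filter on low counts, the others having at most 10 counts in any library. Of those 8, 3 were called higher and none lower, a count that the filter shapes. Among all tested genes 26.3% were called higher and 52% in either direction. HOXA10 had 157, 169 and 148 counts at 500 nM, against 28, 31 and 52 counts in DMSO (1.61 ± 0.27, adjusted p = 1.27e-05), which is 2.6, 3.75 and 2.76 CPM at 500 nM, against 0.649, 1.14 and 1.22 CPM in DMSO. HOXB7 (1.62 ± 0.50, adjusted p = 0.00758) and HOXA5 (0.81 ± 0.32, adjusted p = 0.0344) had at most 1.4 CPM in any library. HOXA5 lost its call without DMSO replicate 1 or 2 or any 500 nM library (adjusted p = 0.062 to 0.111).

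EZH2 and its partners are known to follow cell division, so proliferation markers were set beside them. Of 18 markers, 11 fell and 1 rose at 500 nM against DMSO, with a median of -0.17. Among all tested genes 25.6% were called lower and 52% in either direction, and the median was 0.01. CCNB1, the mitotic cyclin, had 122, 127 and 130 CPM at 500 nM, against 326, 306 and 318 CPM in DMSO (-1.32 ± 0.05, adjusted p = 1.39e-18). The kinases BUB1 (-1.05) and AURKB (-0.89) and the topoisomerase TOP2A (-0.64) fell too. E2F1, which encodes a factor that binds E2F sites, was the marker that rose (0.22 ± 0.06, adjusted p = 0.00174), a call that ended with GC trends removed (0.08, adjusted p = 0.13). On total counts 8 markers were lower and 4 higher, where 69.5% of all called genes were higher, against 50.7% with TMM scaling. The part of these changes in those of EZH2, EED, SUZ12, MTF2 and RBBP7 was not tested.

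**Figure D4:**
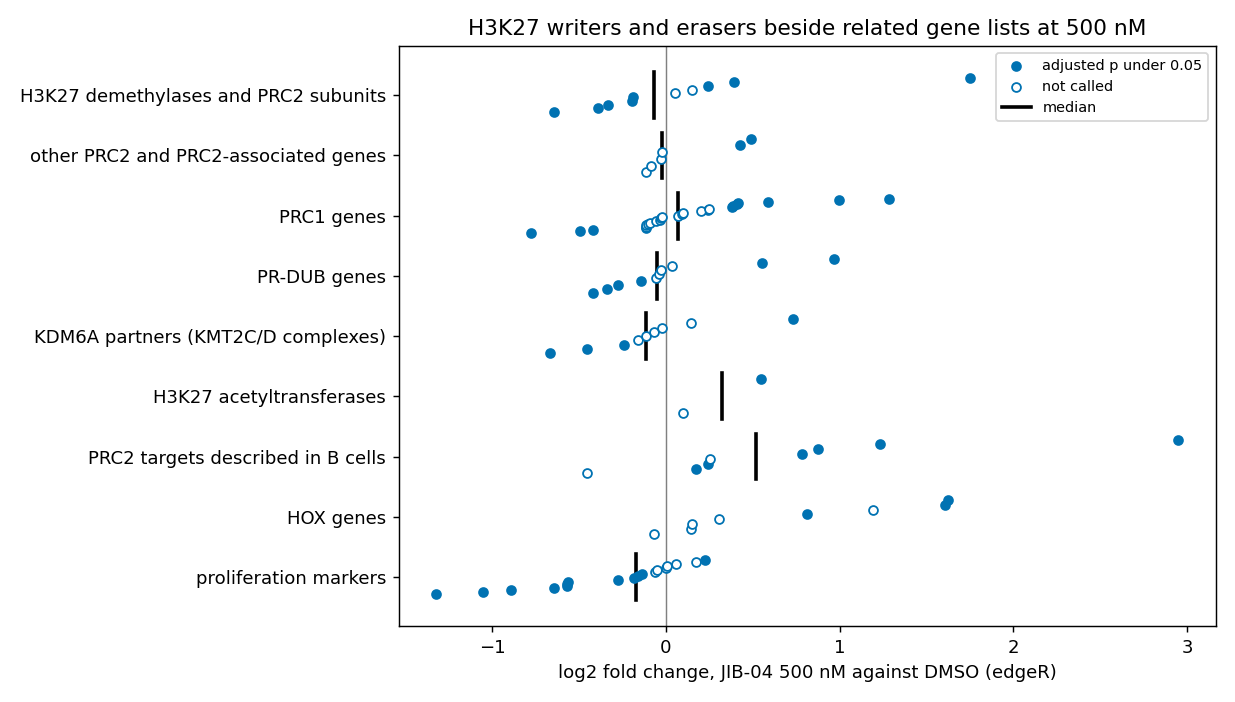
Log2 fold change at 500 nM JIB-04 against DMSO (x axis, edgeR) of the 10 genes and of every tested gene of the 8 related lists (rows), filled where the adjusted p was under 0.05. Black ticks are medians, left out for HOX genes because most of those were filtered out, and CDKN1A (2.95) and CCNB1 (-1.32) are the extremes.

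By the correlation of log2 CPM over the 9 libraries among 10178 genes, the genes most like EZH2 were USO1 (r = 0.9937), ARPC3 (r = 0.9906), EIF2S1 (r = 0.9904), GPBP1L1 (r = 0.987) and TRMT10A (r = 0.9856). All 5 were lower at 500 nM than in DMSO, for example ARPC3, an actin-branching subunit, with 113 CPM at 500 nM and 153 CPM in DMSO (log2 change -0.43). Those most like KDM6B were SLC37A1 (r = 0.9981), JUN (r = 0.9971), LONP1 (r = 0.9971), RGS16 (r = 0.9971) and C6orf48 (r = 0.9968). JUN, an AP-1 subunit, averaged 20.5 CPM at 500 nM and 2.99 CPM in DMSO, and LONP1, a mitochondrial protease, 345 CPM at 500 nM and 208 CPM in DMSO. The 9 libraries fall into 3 groups, and r exceeded 0.9 for 10.8% of genes with EZH2 and 13% with KDM6B, so such values mostly describe the step at 500 nM.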

How the data were processed

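RNA was measured in 9 libraries of OCI-Ly1, grouped by the sample titles. What the authors deposited is a table of raw read counts, with 1 row per symbol and 1 column per library. Tools listed in the submitters' processing notes are TopHat2 2.0.14, featureCounts 1.4.6 of Subread and Bowtie2 2.2.6. The same notes list hg19 and mm10 as builds, with no role for either. Annotation and strand setting: not given in the sources used here.

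R 4.3.3 with edgeR 4.0.16 was used. Genes were kept by filterByExpr (minimum count 10, minimum total 15), TMM scaling was applied, and a robust quasi-likelihood model covered all 9 libraries. P-values were adjusted by Benjamini-Hochberg over 15089 genes, with calls under 0.05. Each SE was derived from the change before shrinkage and its F statistic. The script was tested on simulated data in which few genes changed, in both directions, so that test does not bear on the choice of scaling. The 10 genes, the 8 gene lists and the motifs were chosen with earlier results of these data known. Genes named from a list are up to 4 called genes with the smallest adjusted p in each direction, and some uncalled ones. Of the genes chosen for the PRC1 list and the B-cell markers, 1 each is not reported here. TXLNG and SUZ12P1 were named outside that rule. Lengths come from GENCODE 29 and promoters from RefSeq (GRCh38.p14).

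Alternatives were DESeq2 1.42.0, limma-voom (limma 3.58.1), DESeq2's size factors, total-count scaling, no filter, 1 CPM in 3 libraries, fits to the 6 libraries of a comparison, a replicate block, GC or length trends removed (lowess span 0.3; 95.6% of tested genes have values), counts thinned to 28476845, and leaving out each library. Replicates exceeded sampling noise (chi-square per degree of freedom 6.59 to 16.05) and count as separate libraries. Deviations of same-numbered libraries of different groups correlated at -0.052 to 0.104, and those of differently numbered libraries at -0.083 to 0.035. Between DMSO and 150 nM the same-numbered values (0.104, 0.013 and 0.07) were above all the others. The labels do not tell whether the numbers mark pairs. The main fit took none, and the replicate block is given as an alternative. Counting error was at most 6.52% for a member in 1 library. It covers counting alone, as reads are not independent molecules.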

Additional observations from a re-analysis of the deposited data

How the results depend on the processing

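At 150 nM against DMSO all 20 alternatives called 0 of the 10 genes. At 500 nM against DMSO they called 8 or 9, and at 500 against 150 nM 8 or 9. KDM6B, EZH1, EED, JARID2, MTF2 and RBBP7 kept direction and call in all 20 at 500 nM against DMSO, and EZH2 and SUZ12 in all but total-count scaling (cause not tested). With the replicate block the count at 500 nM against DMSO was 9, KDM6A being added (adjusted p = 0.0382). GC trends removed and length trends removed changed list counts. Removing GC trends gave 1 call each for PR-DUB, the KDM6A partners and proliferation markers at 150 nM against DMSO, in place of 0. At 500 against 150 nM it left the other PRC2 genes 1 call, higher, in place of 2 higher and 1 lower. PR-DUB then had 8 calls, 3 higher and 5 lower, in place of 2 higher and 3 lower. The main fit called 46.5% of all tested genes there, and the share with GC trends removed is not given here. For PR-DUB at 150 nM, no filter and the replicate block also gave 1. With length trends removed, the KDM6A partners had 7 calls at 500 nM against DMSO, in place of 1 higher and 3 lower. Total-count scaling gave the acetyltransferases 2, in place of 1. With a filter of 1 CPM the HOX genes had 1 call at 500 against 150 nM, in place of 2. Leaving out 1 library gave 0 to 1 calls for PRC1 and for PR-DUB at 150 nM and 1 to 2 for HOX genes at 500 against 150 nM. The causes were not tested.

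Signs turned only for uncalled changes near 0. At 150 nM against DMSO, EZH1 was 0.022 with GC trends removed, 0.0022 with no filter, 0.008 thinned and 0.0061 on total counts. With GC trends removed, SUZ12 was -0.0106 and MTF2 -0.0184, and at 500 nM against DMSO PHF19 was -0.0091. Leaving out 1 library at 150 nM against DMSO gave -0.0511 to 0.0002 for EZH2, -0.0283 to 0.0103 for EZH1, -0.0762 to 0.012 for EED, -0.0322 to 0.1088 for SUZ12 and -0.0186 to 0.0789 for MTF2. It gave -0.0022 to 0.0961 for PHF19 at 500 nM against DMSO. The log2 ratio differences at 150 nM were then -0.0129 to 0.0351 for EZH1 to EZH2 and -0.0384 to 0.2135 for KDM6B to KDM6A. Depth limits KDM6B most, with 235 counts in its lowest library.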
